A study of Mus musculus with 3 samples.

Results

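Ciliated airway cells were examined in lungs of female C57BL6/J mice 5 months after bilateral irradiation of the thorax with 13 Gy. Whole lungs were dissociated with enzymes and sequenced by a droplet-based single-cell method, with 1 mouse and 1 library per condition. The CONV mouse (labelled CONV IR) received its dose at a conventional dose rate, and the FLASH mouse (FLASH IR) received it at an ultra-high dose rate. The CONV AsiDNA mouse (AsiDNA CONV IR) was irradiated at the conventional dose rate and also received intraperitoneal AsiDNA, at 100 mg/kg on each of 2 days and at 200 mg/kg on the day of irradiation. AsiDNA is a short synthetic DNA, joined to cholesterol so that cells take it up, whose blunt end is sensed by repair enzymes as broken DNA. All 3 mice were irradiated, and no non-irradiated library was analysed here. A cell was taken as ciliated when at least 4 of 8 marker genes (Foxj1, Ccdc153, Tmem212, Dynlrb2, Fam183b, Rsph1, Tppp3 and Cfap126) were above 0 and Ptprc, Scgb1a1, Slc34a2, Pecam1 and Col1a1 were all at 0. The rule kept 923 of 19622 cells (4.7%), of which 295 came from CONV, 390 from CONV AsiDNA and 238 from FLASH. Unless stated otherwise, values given in threes follow the order CONV, CONV AsiDNA, FLASH. With 1 mouse per condition a difference between libraries has no replicate check, and condition, mouse, dissociation and library cannot be told apart.

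Ciliated cells line the airways and each bears many motile cilia, whose beat moves mucus and trapped particles out of the lung. The shaft of a motile cilium, the axoneme, holds doublet microtubules around a central pair. Dynein arms slide the doublets, radial spokes and nexin links control the sliding, and intraflagellar transport carries the parts into the cilium. The transcription factor Foxj1 and the RFX family factors (Rfx2, Rfx3) switch on the genes of motile cilia, and Myb and Trp73 act early in the making of a multiciliated cell.

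RFX factors bind the X-box, a pair of facing half-sites, and promoter sequence is shown first because this element is what many cilium genes share apart from their expression. The windows came from RefSeq (build GRCm38.p6) and ran from 250 bases before to 50 bases after each gene's start. The half-site GTTGCC, searched on both strands, was present in 3423 of 27025 promoters (12.7%). Among the axonemal genes it was present in 51 of 123 (41.5%), among intraflagellar transport genes in 17 of 43 (39.5%) and among basal body genes in 22 of 49 (44.9%). The paired X-box (GT, any base, A or G, CC, then 0 to 3 bases, then A or G, G, C or T, AAC, on either strand) was present in 1.59% of all promoters and in 21 of 123 axonemal promoters (17.1%). A match of the pair can contain GTTGCC, so that the counts overlap. The forkhead core GTAAACA was present in 3.55% of all promoters and in 5 of 123 axonemal promoters (4.07%). A match describes the letters in the window and does not show binding, and a window without a match says only that these letters are absent from it.

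Promoters with a match are shown for 5 cilium genes and for Hspe1, a chaperone gene that returns in the comparison of libraries, each ending at the last base before the gene's start. Dynlrb2 (chr8:116504895-116505014, + strand) and Ccdc153 (chr9:44240497-44240676, + strand) are markers of the rule. Cfap45 (chr1:172521010-172521129, + strand), Iqca (chr1:90153437-90153556, - strand) and Cfap44 (chr16:44394679-44394798, + strand) encode axonemal proteins. Hspe1 (chr1:55088028-55088147, + strand) encodes the mitochondrial co-chaperonin. Capitals mark the paired X-box in Dynlrb2, Cfap45, Iqca and Cfap44, the half-site in Ccdc153 and 2 overlapping matches of the heat shock element (GAA, TTC and GAA with 2 bases between them) in Hspe1.
Dynlrb2: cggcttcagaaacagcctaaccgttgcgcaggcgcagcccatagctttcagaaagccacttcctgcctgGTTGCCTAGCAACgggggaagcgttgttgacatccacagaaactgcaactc
Ccdc153: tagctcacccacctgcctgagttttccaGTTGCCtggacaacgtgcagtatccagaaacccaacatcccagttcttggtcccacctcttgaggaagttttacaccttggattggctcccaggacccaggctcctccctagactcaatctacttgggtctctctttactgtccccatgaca
Cfap45: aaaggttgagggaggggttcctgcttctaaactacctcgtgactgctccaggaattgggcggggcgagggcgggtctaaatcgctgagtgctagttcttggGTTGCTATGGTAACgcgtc
Iqca: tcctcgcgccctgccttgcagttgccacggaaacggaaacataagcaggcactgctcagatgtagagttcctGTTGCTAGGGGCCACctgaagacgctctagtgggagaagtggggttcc
Cfap44: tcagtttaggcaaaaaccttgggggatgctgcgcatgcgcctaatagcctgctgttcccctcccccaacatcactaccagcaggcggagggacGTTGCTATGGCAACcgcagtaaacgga
Hspe1: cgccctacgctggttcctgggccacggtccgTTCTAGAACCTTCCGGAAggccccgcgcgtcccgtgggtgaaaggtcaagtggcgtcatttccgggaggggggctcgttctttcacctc
The capitals lie 51 to 39 bases before the start in Dynlrb2, 152 to 147 in Ccdc153, 19 to 6 in Cfap45, 48 to 34 in Iqca, 27 to 14 in Cfap44 and 89 to 72 in Hspe1. The heat shock element was present in 143 of 27025 promoters (0.529%), in 3 of 26 chaperone promoters (11.5%: Hspe1, Hsph1 and Chordc1) and in none of the 123 axonemal promoters. It was searched after the chaperone values had been seen.

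The 8 markers chose the cells, so their levels are a description. All 8 were above 0 in 260 of the 295, 370 of the 390 and 223 of the 238 ciliated cells. The edge of the rule was thinly filled: exactly 4 markers were above 0 in 3, 1 and 0 of the kept cells, and exactly 3 in 1, 0 and 15 cells of the libraries. In FLASH this edge was emptied by the exclusion genes, which were above 0 in all 17 cells with exactly 4 markers and in 14 of 15 with exactly 5. Foxj1 was above 0 in 97.3%, 99.0% and 97.9% of the kept cells in CONV, CONV AsiDNA and FLASH. Outside them it was above 0 in 0.0658%, 0.501% and 1.11% of cells, at a median of 3450 to 3678 adjusted counts per cell over whole libraries. Other cilium genes that the rule did not use marked the same cells: at least 4 of a second set of 8 (Cfap52, Tekt1, Pifo, Meig1, Spag6l, Ccdc113, Lrrc23, Rsph4a) selected 4.46%, 5.54% and 3.7% of the libraries under the same exclusions. The label of ciliated cells therefore fits the markers in all 3 libraries.

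Ciliated cells made up 4.63% of the CONV library (95% interval 4.13 to 5.17), while the share was 5.58% (5.06 to 6.15) for CONV AsiDNA and 3.8% (3.34 to 4.3) for FLASH. The intervals are exact (Clopper-Pearson) and cover the sampling of cells only, not the spread between mice. CONV AsiDNA was the highest and FLASH the lowest under this rule, and the order of CONV and FLASH rested on the exclusion of cells above 0 for Scgb1a1, the secretoglobin of club cells. Cells with at least 4 markers and an exclusion gene numbered 4, 33 and 81, and Scgb1a1 was above 0 in 4, 32 and 78 of them. With no exclusion gene the shares were 4.69%, 6.06% and 5.09%, and with the other exclusion genes kept they were 4.68%, 6.04% and 4.74%, which put FLASH level with or above CONV. The left-out cells of FLASH had a median of 2307 adjusted counts and 789 genes, against 4489 and 2330 in its ciliated cells. Those of CONV AsiDNA had a median of 5689 adjusted counts and 1452 genes. Whether the left-out cells were doublets, held free Scgb1a1 RNA or were cells with both programmes was not tested.

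**Figure D1:**
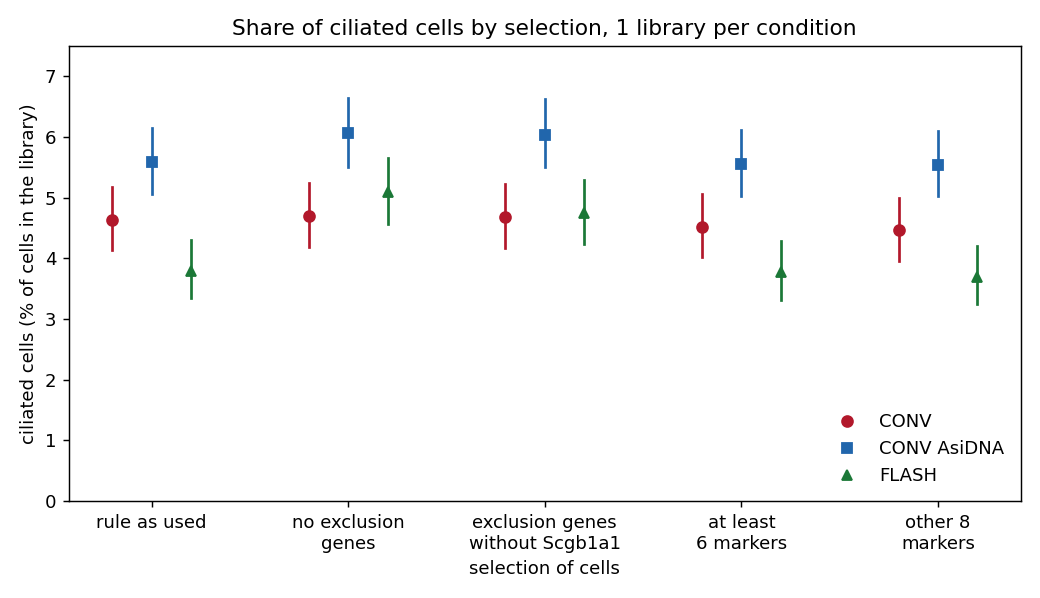
Share of ciliated cells (% of all cells in a library) under 5 selections; points are libraries, 1 per condition, and bars are exact 95% intervals over cells. FLASH moves from 3.8% under the rule to 5.09% with no exclusion genes, past CONV at 4.69%, and CONV AsiDNA stays highest.

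The kept cells had a median of 4526, 4488 and 4489 adjusted counts and 2342, 2330.5 and 2330 genes per cell in CONV, CONV AsiDNA and FLASH. Totals per cell had been evened out before deposition, so these medians do not show whether sequencing depth was alike. Their mitochondrial share differed, at a median of 2.9%, 2.34% and 4.66%. Marker lists of other cells differed in how far they were present. Of 19 lymphocyte genes, 1, 3 and 0 were above 0, and the summed level in CONV (281.1 CPM, adjusted counts scaled to a library sum of 1000000) came from 1 cell. Of 13 endothelial genes, 0, 2 and 0 were above 0, and of 17 stromal genes, 0, 4 and 1. Of 14 alveolar type 2 genes, 3, 2 and 1 were above 0, with a sum of 82.4 to 170.8 CPM against 260091.9 or more in type 2 cells. Of 19 macrophage genes, 2, 1 and 1 were above 0, and the sum of 486.9, 452.7 and 491.4 CPM was nearly all Plet1, with Lyz2, Cd68 and Mrc1 at 0. Alveolar type 1 genes were present, with 8, 8 and 6 of 12 above 0 and sums of 1296.0, 1598.2 and 1266.8 CPM against 996.9, 1152.5 and 1610.4 CPM in all other cells. Hopx (633.8, 611.6 and 509.2 CPM) and Igfbp2 (256.5, 446.9 and 270.1 CPM) made up most of that sum, and Ager, Pdpn, Rtkn2 and Akap5 were at 0 in every library. Club genes were present too, at 5456.7, 4659.7 and 4472.9 CPM summed over the list against 65693.4 to 72972.1 CPM in club cells, mostly through Cyp2f2, a cytochrome P450 of the airway (3835.7, 3404.2 and 3172.3 CPM).

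The genes that stood farthest above all other cells, among those the rule did not use, were AU040972, Elof1, 1110017D15Rik, Cyp2s1, 1700094D03Rik, Dnah6, Riiad1 and Sntn, at 6.45 to 7.70 on the log2 scale. Dnah6 is an inner dynein arm heavy chain, Sntn (sentan) is a protein of the ciliary tip and Cyp2s1 is a cytochrome P450. Because the cells were selected by correlated genes, this order is a description and not a test. Of the 20 genes farthest above other cells, 16 had a promoter in the table and 7 of these held the RFX half-site (43.8%).

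The first question between libraries was whether the cilium programme differed. Levels were compared as log2 ratios of (CPM + 10) over 10403 genes, with 2-fold (a ratio of 1 or -1) as the threshold, and beside it by shares of cells above 0 whose intervals did not overlap. The counts past 2-fold take in genes listed at 0 in 1 library, whose ratio depends on the added 10. Between CONV and CONV AsiDNA, 143 of all genes (1.37%) were at least 2-fold higher and 83 (0.798%) at least 2-fold lower in CONV, and 608 (5.84%) had a higher and 527 (5.07%) a lower share interval in CONV. None of 141 axonemal genes passed 2-fold there, 2 had a higher and 17 a lower share in CONV, and 107 of 141 ratios were below 0, with a median of -0.14 against -0.01 over all genes. Between CONV and FLASH, 198 genes (1.9%) were at least 2-fold higher and 72 (0.692%) lower in CONV, with 444 (4.27%) higher and 300 (2.88%) lower share intervals. No axonemal gene passed 2-fold, 1 had a higher and 16 a lower share in CONV, and the median was -0.14 against 0.01. Between CONV AsiDNA and FLASH, 65 genes (0.625%) were at least 2-fold higher and 37 (0.356%) lower in CONV AsiDNA, with 177 (1.7%) higher and 149 (1.43%) lower share intervals. There 1 axonemal gene passed 2-fold (Dynlt1b, at 42.0 CPM in CONV AsiDNA and 14.1 in FLASH, whose reads may be shared with near-identical copies), 1 share was higher and 1 lower, and the median was -0.03.

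The axonemal genes were thus expressed at near the same level in all 3 libraries, slightly lower in CONV. Summed over the list, cells held a median of 197.0 (CONV), 213.0 (CONV AsiDNA) and 212.0 (FLASH) adjusted counts, with quartiles of 165.0 to 223.5, 179.0 to 242.8 and 180.2 to 248.0, so that the 3 distributions largely overlapped. The same genes in all other cells, at 533.9 to 822.1 CPM in sum against 42253.4 to 47566.3 CPM in ciliated cells, gave medians of -0.11, -0.16 and -0.05 for the 3 pairs. When the cells with an exclusion gene were kept, the median of CONV over FLASH turned to 0.04.

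**Figure D2:**
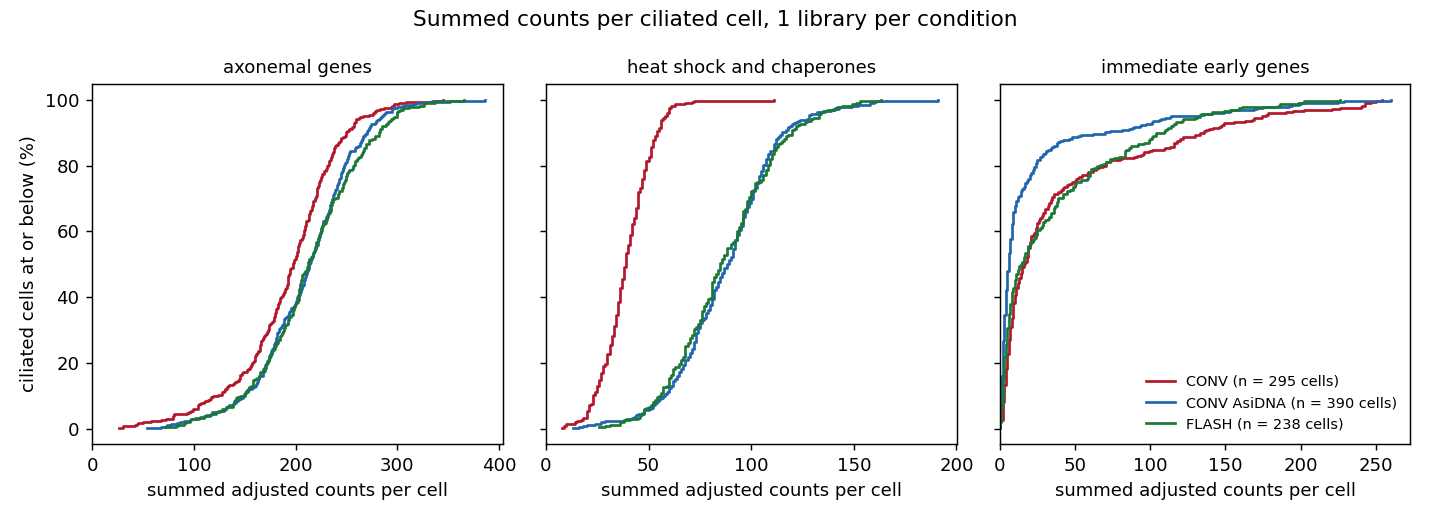
Cumulative share of ciliated cells (%) by summed adjusted counts per cell for 3 gene lists; each line is 1 library. The axonemal lines lie close (medians 197.0, 213.0 and 212.0), the chaperone line of CONV lies far to the left (39 against 88.5 and 85) and the immediate early line of CONV AsiDNA rises first (6 against 16 and 14.5).

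By role, the switches of ciliation came first. Foxj1, which chose the cells, stood at 1104.3, 1243.4 and 1245.3 CPM in CONV, CONV AsiDNA and FLASH. Myb stood at 189.4, 201.0 and 221.3 CPM and Trp73, a p53-family factor, at 89.5, 100.2 and 98.5 CPM. None of the 17 multiciliation genes compared passed 2-fold in any pair, which at most 1.9% of all genes did in either direction. Rfx3 was at 197.6, 136.5 and 149.1 CPM and above 0 in 61.4%, 46.2% and 53.8% of cells. It alone of the 17 had separate share intervals (CONV above CONV AsiDNA). That count is near the share over all genes, 5.84%.

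Heavy chains of the outer dynein arms, the motors that set beat frequency, were level between libraries. Dnah5 was at 1052.1, 1052.2 and 1094.3 CPM and Dnah9 at 454.9, 453.8 and 482.9 CPM. The median log2 ratio over 23 outer arm genes was -0.10, -0.07 and -0.05 for CONV over CONV AsiDNA, CONV over FLASH and CONV AsiDNA over FLASH. Mns1, a filament protein inside the doublets on which outer arm docking depends, stood apart from them at 409.4, 709.0 and 753.9 CPM. It was above 0 in 83.4%, 95.4% and 98.3% of cells, lower in CONV than in both others with separate intervals, short of 2-fold.

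Inner arm genes gave medians of -0.07, -0.16 and -0.14 (17 genes). The factors that assemble dynein arms in the cytoplasm gave -0.23, -0.21 and 0.00 (18 genes), and 3 of the 18 had a lower share interval in CONV than in CONV AsiDNA (5.07% of all genes) and 3 than in FLASH (2.88%), of which Dnaaf2 and Zmynd10 were in both counts. Dnaaf2, an assembly factor, was at 80.5, 126.1 and 137.8 CPM, and Zmynd10, another, at 210.3, 283.4 and 260.7 CPM. Ccdc103 was apart from CONV AsiDNA only and Spag1 from FLASH only.

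Nexin link and ruler genes gave medians of -0.15, -0.17 and -0.07 (14 genes). Drc1, a nexin link subunit, was above 0 in 80.3%, 89.7% and 89.9% of cells, and Iqca, the nexin link gene whose X-box is shown above, in 85.1%, 92.8% and 93.3%. Both were lowest in CONV with separate intervals, but those of Iqca overlapped once cells were thinned to 1000 adjusted counts (38.3%, 45.1% and 44.5%). Of the ruler pair, Ccdc39 was above 0 in 90.2%, 94.6% and 97.1% of cells, with separate intervals for CONV and FLASH, and Ccdc40 was at 327.3, 342.1 and 361.0 CPM with overlapping intervals.

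Radial spoke genes gave -0.13, -0.02 and 0.12 (18 genes), central pair genes -0.15, -0.18 and -0.11 (24 genes) and inner proteins of the doublets -0.20, -0.04 and 0.10 (27 genes). In these lists 3, 1 and 6 genes had a lower share interval in CONV than in CONV AsiDNA (5.07% of all genes). Higher ones numbered 0, 1 and 1 (5.84%). Against FLASH, 2, 1 and 2 were lower in CONV (2.88%) and 0, 0 and 1 higher (4.27%). Between CONV and CONV AsiDNA Morn3 was the axonemal gene nearest to 2-fold, at 105.9, 217.7 and 192.2 CPM and in 39.3%, 67.7% and 62.6% of cells, with log2 ratios of -0.97 and -0.80 for CONV over CONV AsiDNA and over FLASH. Ccdc173, a doublet protein, was at 144.7, 256.9 and 260.7 CPM and Cfap45, another, at 430.2, 584.6 and 606.7 CPM. All 3 were lowest in CONV with separate intervals, and those of Cfap45 overlapped after thinning (34.9%, 42.8% and 45.4%). Hydin, a giant central pair protein, was instead highest in FLASH (644.2, 628.3 and 811.1 CPM), with a share interval apart from that of CONV AsiDNA. Spag8 ran the other way, at 146.1, 114.6 and 102.2 CPM, with a higher share interval in CONV than in both others.

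Of 47 genes of intraflagellar transport and the BBSome, the coat that sorts membrane cargo of cilia, 34 ratios of CONV over each other library were below 0, with medians of -0.15 (against CONV AsiDNA) and -0.16 (against FLASH) and none past 2-fold. In CONV, 7 of the 47 had a lower and 1 a higher share interval than in CONV AsiDNA (5.07% and 5.84% of all genes). Against FLASH, 3 were lower and 0 higher in CONV (2.88% and 4.27%). Ift43 was at 732.2, 941.6 and 868.3 CPM and Arl3, a small GTPase of ciliary import, at 393.7, 525.8 and 532.6 CPM. Ift172 differed from them, at 510.0, 379.5 and 381.6 CPM. The first 2 were lowest in CONV and Ift172 was highest there.

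Basal body and transition zone genes gave medians of -0.08, -0.13 and -0.03 (58 genes) with none past 2-fold (at most 1.9% of all genes in either direction). Cep290, a gatekeeper of the transition zone, was at 585.3, 728.0 and 799.9 CPM, and Odf2, a part of the basal foot, at 246.1, 170.5 and 196.0 CPM. The tubulin list gave -0.05, 0.02 and 0.06 (25 genes). Its ciliary members Tubb4b (2306.3, 2833.5 and 2766.2 CPM) and Tuba1a (2448.7, 2523.1 and 2526.2 CPM) stayed short of 2-fold, and Tuba1c alone passed it, at 47.0, 11.5 and 36.6 CPM.

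Genes of the apical surface and other ciliated cell genes had a median near 0 in every pair (-0.09, -0.08 and 0.01 over 52 genes), with members in both directions. Against CONV AsiDNA, 5 share intervals were higher and 6 lower in CONV (5.84% and 5.07% of all genes), and against FLASH 6 were higher and 2 lower (4.27% and 2.88%), the last count being near that of all genes. AU040972 was at 5491.0, 2418.3 and 2066.7 CPM, with log2 ratios of 1.18 and 1.41 for CONV over the others. Prom1, a membrane protein of cell protrusions, was at 678.5, 447.5 and 432.3 CPM, and the mucin Muc4 at 577.1, 418.1 and 443.5 CPM. The sodium pump subunit Atp1b1 was at 850.0, 471.7 and 477.3 CPM. These 4 were highest in CONV with separate share intervals. Those of Prom1 did not all stay apart once cells were thinned to 1000 adjusted counts (44.1%, 36.4% and 31.9%). The mucin Muc1 was also highest in CONV with separate share intervals, past 2-fold at 31.3, 5.76 and 6.56 CPM. It was compared mainly through CONV and is no support for the direction. Nme9 (469.0, 664.0 and 655.5 CPM) and Calml4 (823.2, 1020.5 and 1060.6 CPM) were lowest in CONV with separate intervals. The mucin Muc16 was at 13.2 CPM in CONV AsiDNA, in 1.03% of cells, and listed at 0 in the others.

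Heat shock proteins and chaperones, which fold new and damaged proteins, were lower in CONV. Of 27 genes compared, 26 were lower in CONV than in CONV AsiDNA and 26 lower in CONV than in FLASH, 10 and 11 of them by 2-fold or more against 0.798% and 0.692% of all genes. The medians were -0.75 and -0.90, and that of CONV AsiDNA over FLASH was 0.04 with 0 genes past 2-fold. In each ciliated cell the list summed to a median of 39 adjusted counts in CONV (quartiles 31 and 47), 88.5 in CONV AsiDNA (72 and 103.8) and 85 in FLASH (68.2 and 102.8). The difference ran through most of the cells, since 91.5% of CONV AsiDNA and 90.3% of FLASH ciliated cells lay above 54, the 90th percentile of CONV.

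Both cytosolic HSP90 genes were lower in CONV by more than 2-fold. Hsp90aa1 was at 2253.4, 5942.9 and 5806.3 CPM (log2 ratios -1.40 and -1.36). Hsp90ab1 was at 1575.6, 4347.0 and 4326.6 CPM (-1.46 and -1.45). CONV was the low library for each, and CONV AsiDNA and FLASH differed by 0.03 and 0.01.

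Partners of HSP70 followed the same order. Hspa8, the constitutive HSP70, was at 595.0, 1512.4 and 1349.4 CPM, its co-chaperone Dnaja1 at 294.5, 840.3 and 796.1 CPM and Hsph1, which exchanges its nucleotide, at 179.7, 582.8 and 547.6 CPM. Hsph1 was above 0 in 54.6%, 89.7% and 87.0% of cells. The mitochondrial pair Hspd1 and Hspe1 was at 136.5, 350.2 and 306.6 CPM and at 49.2, 212.5 and 163.2 CPM, and Hspe1 was above 0 in 19.3%, 60.0% and 50.4% of cells. Hspa5, the chaperone of the endoplasmic reticulum, was at 422.8, 814.3 and 919.9 CPM. CONV was lowest for every one of these genes. Hspa1a alone was higher in CONV (22.4, 10.9 and 3.75 CPM), and its near-identical copy Hspa1b was at 2.24, 23 and 15.9 CPM, so that the counts of this pair are uncertain.

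Cells outside the rule were also lowest in CONV. Over all of them the list summed to 4087.7, 5557.4 and 5176.1 CPM, with medians of -0.39 and -0.32, against 8609.4, 19694.0 and 19400.3 CPM in ciliated cells. In club cells it summed to 1429.6, 3217.6 and 3326.5 CPM, and in alveolar type 2 cells to 3744.5, 4465.5 and 4009.6 CPM. The size of the difference between cell types was not tested. Among ciliated cells with a mitochondrial share under 5% the medians were of the same sign, -0.71 for CONV over FLASH.

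**Figure D3:**
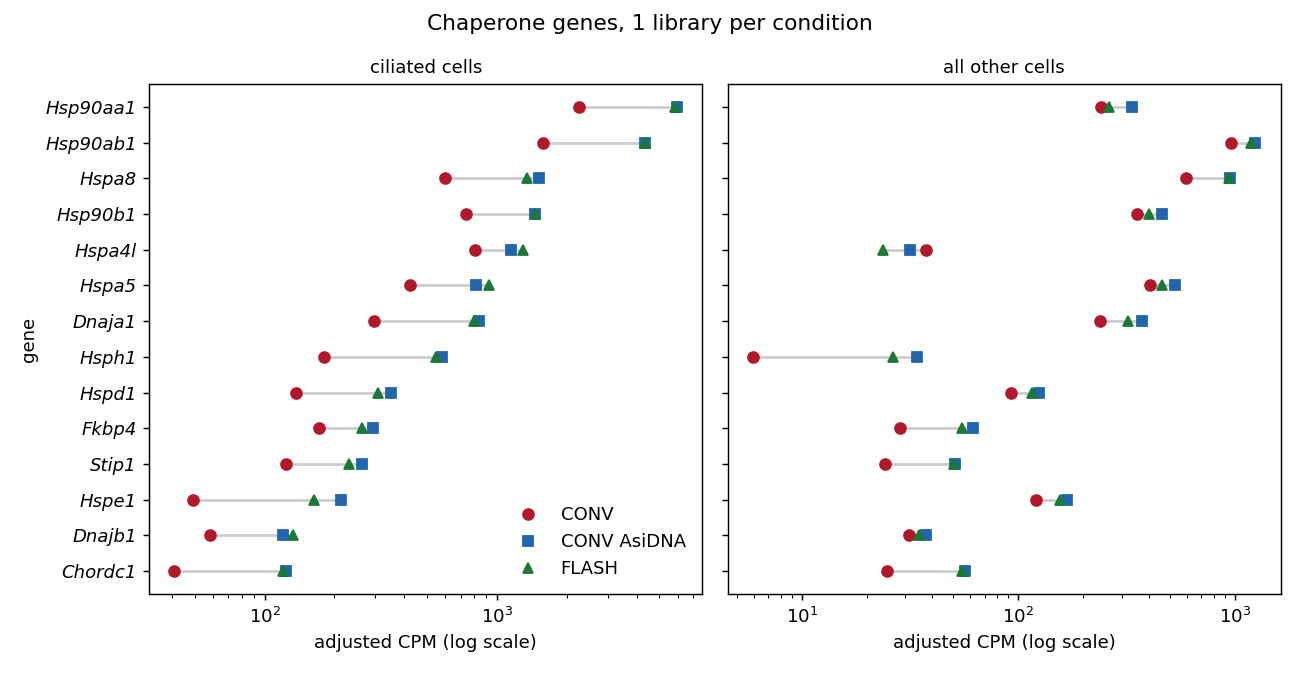
Levels (adjusted CPM, log axis) of 14 chaperone genes in ciliated cells (left) and in all other cells (right); each point is 1 library and grey lines join the 3 libraries of a gene. CONV is lowest for all 14 genes in ciliated cells, for example 179.7 against 582.8 and 547.6 for Hsph1, and for Hspa4l CONV is highest in the other cells.

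Immediate early genes, which respond within minutes to stress, growth signals and tissue dissociation, separated CONV AsiDNA from the other libraries. Of 31 genes compared, 29 were higher in CONV than in CONV AsiDNA, 14 by at least 2-fold against 1.37% of all genes (Nfkbiz among them, listed at 0 in CONV AsiDNA), and 27 were lower in CONV AsiDNA than in FLASH, 2 by at least 2-fold against 0.356%. The medians were 0.89 and -0.57, and that of CONV over FLASH was 0.23 with 5 genes at least 2-fold higher (1.9% of all genes; Egr2 among them, listed at 0 in FLASH) and 1 lower (0.692%). The sum per cell was spread widely in each library, with a median of 16 in CONV (quartiles 6 and 49), 6 in CONV AsiDNA (2 and 18) and 14.5 in FLASH (4 and 51).

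Jun was at 1263.9, 577.1 and 1175.9 CPM, and above 0 in 60.0%, 27.4% and 47.9% of cells. Its partner Fos was at 1319.1, 707.2 and 1265.0 CPM. The stress factor Atf3 was at 633.8, 304.7 and 553.2 CPM. In these 3 genes CONV and FLASH were close and CONV AsiDNA was low. Klf6 (888.1, 315.6 and 589.8 CPM) and the phosphatase Dusp1 (353.4, 99.1 and 207.2 CPM) had FLASH between the others. Another order held for Socs3, a brake on cytokine signalling (109.6, 44.9 and 43.1 CPM), for Nfkbia, the inhibitor of NF-kB (300.5, 122.7 and 103.1 CPM), and for Ccn1 (177.5, 50.1 and 47.8 CPM), in which CONV alone was high. Btg1 ran against the list, at 217.7, 364.0 and 381.6 CPM. In all other cells the list was level, at 17935.4, 17839.3 and 17090.1 CPM in sum, and it was highest in CONV in club cells (11705.5, 6459.9 and 6569.1 CPM) and type 2 cells (17653.7, 13077.8 and 12199.2 CPM). The part of dissociation in these values was not tested.

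Genes of airway defence and the acute phase were higher in CONV. Of the 12 compared, 10 were higher in CONV than in CONV AsiDNA and 10 higher in CONV than in FLASH (medians 0.48 and 0.50), and Pigr and S100a6 passed 2-fold in both pairs (1.37% and 1.9% of all genes did). Cfb, at 25.4 CPM in CONV and listed at 0 in the others, was compared through CONV alone and is no support for the direction. The counts and medians above include Cfb, and 11 of the 12 genes were above 0 in every library. Reg3g and Chia1 were at least 2-fold lower in CONV than in CONV AsiDNA. Pigr, which carries IgA across the epithelium, was at 188.7, 62.2 and 39.4 CPM and above 0 in 43.4%, 19% and 13.9% of cells. S100a6, a calcium-binding protein, was at 1454.8, 661.2 and 551.4 CPM. The copper-carrying acute phase protein Cp was at 717.3, 448.1 and 491.4 CPM. In each, CONV was high and the other libraries were nearer to each other. Over all other cells pooled the list had medians of -0.20 and -0.17. In type 2 cells it summed to 24876.9, 14108.4 and 11747.8 CPM, also highest in CONV, and in club cells to 29296.3, 30567.7 and 25164.8 CPM. Reg3g, an antibacterial lectin, was past 2-fold in CONV AsiDNA (36.5, 483.2 and 57.2 CPM), but was above 0 in only 1.69%, 1.03% and 0.84% of cells.

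The 8 genes that stood farthest above both other libraries in CONV were chosen by that order, so their values are a description. Cd177, a surface protein best known from neutrophils, was at 571.9, 105.4 and 102.2 CPM and above 0 in 60.3%, 26.9% and 28.6% of ciliated cells (log2 ratios 2.33 and 2.37), and it was at 5.1 to 17.7 CPM in all other cells. Serping1, the C1 inhibitor of complement, was above 0 in 36.6%, 8.97% and 3.36% of cells. Orm1, an acute phase glycoprotein, was in 26.8%, 5.9% and 10.5%. Casp4, a caspase that senses bacterial lipopolysaccharide, was in 13.9%, 1.54% and 1.68%. The neutrophil and dendritic cell markers, 12 genes, were all listed at 0 in the CONV ciliated cells. Such a 0 carries no detection limit, and the ribosomal protein gene Rps9 was above 0 in only 1.36% of the same cells. The remaining genes of the 8 were Cdhr1 (50.7, 5.18 and 5.63 CPM), Skil (41, 4.03 and 2.81 CPM), Vnn3 (36.5, 5.76 and 4.69 CPM) and Ccn1, given above. Casp4, Cdhr1, Skil and Vnn3 reached the minimum of 20 adjusted counts only through CONV and are no support for the direction.

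**Figure D4:**
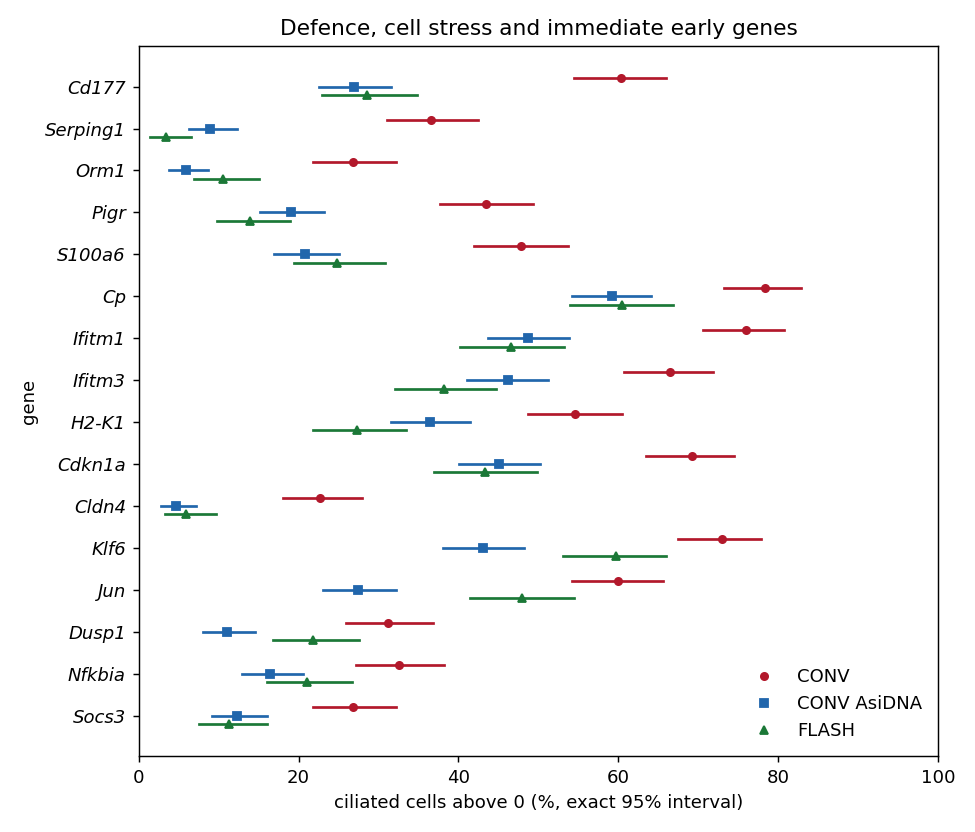
Share of ciliated cells above 0 (%) for 16 defence, stress and immediate early genes; points are libraries, bars exact 95% intervals over cells. CONV lies to the right of both others for Cd177 (60.3% against 26.9% and 28.6%) down to Cldn4, and for Jun FLASH (47.9%) lies between CONV (60.0%) and CONV AsiDNA (27.4%).

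Targets of p53, the factor that responds to DNA damage, were compared because all 3 mice had been irradiated. Cdkn1a, which encodes the cell cycle inhibitor p21, was at 399.7, 203.9 and 190.4 CPM, and above 0 in 69.2%, 45.1% and 43.3% of cells (log2 ratios 0.94 and 1.03). CONV lay above both others with separate intervals. In all other cells Cdkn1a was level, at 342.8, 339.4 and 363.6 CPM. Summed over the p53 targets, club cells (1608.8, 1151.1 and 1094.5 CPM) and type 2 cells (3003.0, 2646.1 and 2342.1 CPM) were also highest in CONV. Mdm2, the p53 ubiquitin ligase, did not follow, at 228.9, 221.2 and 233.5 CPM. The apoptosis gene Bbc3 was at 41, 21.9 and 18.8 CPM, Phlda3 was lowest in CONV (50.7, 97.9 and 72.2 CPM), and Gdf15 was at 52.9 and 36.6 CPM in CONV and FLASH and listed at 0 in CONV AsiDNA. Over 23 targets the medians were 0.25, 0.18 and -0.02, and Cdkn1a passed 2-fold in CONV over FLASH. Gdf15 was past 2-fold in both pairs with CONV AsiDNA, where it was at 0, and Gpx1 was at least 2-fold lower in CONV AsiDNA than in FLASH (77.5, 35.7 and 101.3 CPM).

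Of 15 epithelial genes linked to senescence and fibrosis, 13 were higher in CONV than in CONV AsiDNA and 14 higher in CONV than in FLASH (medians 0.46 and 0.28), with 2 and 3 past 2-fold against 1.37% and 1.9% of all genes. Over all other cells the medians were -0.00 and -0.08, while the sum over the list was also highest in CONV (8483.9, 3767.1 and 3344.3 CPM). The sum was highest in CONV in club cells (2692.2, 2002.9 and 1875.1 CPM) and in CONV AsiDNA in type 2 cells (2301.7, 2542.2 and 1921.0 CPM). Cldn4, a tight junction claudin, was at 82.8, 12.1 and 26.3 CPM and above 0 in 22.7%, 4.62% and 5.88% of cells. Areg, an EGF receptor ligand, was at 1128.2, 443.5 and 706.1 CPM. The keratin Krt19 was at 944.0, 619.1 and 625.5 CPM and Krt8 at 1781.4, 1401.8 and 1464.7 CPM. Cldn4 passed 2-fold against both libraries and Areg against CONV AsiDNA, and the keratins did not pass it. Cdkn1a, also in this list, and Ccn2, a matrix protein at 31.3 and 21.3 CPM and listed at 0 in FLASH, passed it in CONV over FLASH, and Ccn2 also in CONV AsiDNA over FLASH.

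Interferon-stimulated genes as a list did not move one way (26 genes, medians -0.13, 0.15 and 0.17). Ifitm1, a membrane protein that blocks virus entry, was at 1117.7, 531.0 and 420.1 CPM and in 75.9%, 48.7% and 46.6% of cells, and Iigp1, an immune GTPase, was at 97.7, 23.6 and 29.1 CPM. CONV was highest for both, with separate intervals. Isg15 had another order, at 35.8, 114.6 and 59.1 CPM in 3.39%, 6.41% and 4.2% of cells. Of 11 antigen presentation genes compared, 5 were at least 2-fold higher in CONV than in FLASH, against 1.9% of all genes (H2-K1, H2-D1, H2-Q4, H2-T23 and Tapbp). The class I genes H2-K1 (644.2, 427.9 and 266.3 CPM) and H2-D1 (366.9, 304.1 and 163.2 CPM) lay between in CONV AsiDNA. The class II genes Cd74, H2-Aa, H2-Ab1 and H2-Eb1 were compared through CONV AsiDNA alone, so that their direction is no result, at 117.5, 31.7, 42.0 and 21.9 CPM in CONV AsiDNA, in at most 1.28% of its cells, and listed at 0 in CONV and FLASH. In all other cells H2-K1 was at 1900.1, 1672.0 and 1459.7 CPM.

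In CONV AsiDNA and FLASH the genes farthest from both others included a stress gene and mitochondrial transcripts. Osgin1, an oxidative stress gene, was at 104.4, 28.2 and 76.0 CPM, low in CONV AsiDNA alone. In FLASH the mitochondrial transcript mt-Co3 was at 6055.7 CPM and above 0 in 82.4% of cells, against 117.8 and 119.8 CPM and 3.73% and 1.28% of cells in CONV and CONV AsiDNA. mt-Co2 was at 895.5, 468.8 and 4220.6 CPM and mt-Atp6 at 2404.0, 3086.9 and 7136.9 CPM. These 3 and mt-Nd6 (11.9, 17.9 and 61.9 CPM) were at least 2-fold higher in FLASH than in each other library, and the other 9 of 13 mitochondrial genes were not, such as mt-Nd4 at 5253.2, 4793.9 and 5592.5 CPM. All 13 ratios of CONV AsiDNA over FLASH were below 0 (median -0.65, with 8 share intervals lower in CONV AsiDNA against 1.43% of all genes), against 8 of 13 for CONV over FLASH (median -0.09, with 6 intervals lower in CONV against 2.88%). mt-Co3, mt-Co2 and mt-Atp6 were also highest in FLASH in all other cells, at 2860.0 CPM for mt-Co3 against 1626.7 and 690.5.

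Gm42418, which overlaps ribosomal RNA, was at 24642.5 and 16580.6 CPM in CONV and CONV AsiDNA and listed at 0 in FLASH ciliated cells. It was low through most of the FLASH library, above 0 in 5.36% of all other cells against 93.3% and 93.8% in CONV and CONV AsiDNA, but at 35408.2 CPM in the FLASH cells that the exclusion genes removed. Among ciliated cells AY036118, of the same kind, was above 0 in CONV AsiDNA alone (30.3%). It was above 0 in 41.5%, 46.4% and 0.448% of all other cells. Macf1, a linker of microtubules and actin, was at 89.5 and 78.3 CPM and listed at 0 in FLASH ciliated cells. In all other cells Macf1 was at 279.8, 337.3 and 407.6 CPM, highest in FLASH. Lars2, a mitochondrial tRNA synthetase, was at 516.0, 408.3 and 15 CPM in kept cells and at 1089.3 CPM in the removed FLASH cells, and the cell cycle gene Ccnd2 at 120.1, 92.7 and 15 CPM. The values had been adjusted before deposition, and the part of that adjustment in these levels was not tested. Creg1, a lysosomal glycoprotein, was at 38.0, 105.4 and 237.2 CPM and in 6.44%, 35.6% and 62.2% of cells, with separate intervals in every pair. Its order was the same in club cells (0, 40.2 and 184.9 CPM) and type 2 cells (75.6, 188.5 and 276.0 CPM), and differed over all other cells pooled (413.3, 177.3 and 170.1 CPM).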

How the data were processed

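Lungs of 3 irradiated mice were sequenced as 3 droplet-based libraries. Per the submitters' processing notes, Cell Ranger 6.0.0 and mm10 were used. The authors deposited natural log values, ln(1 + a whole number), for 22954 genes per cell; the whole numbers are called adjusted counts here, because totals per cell are evened out and background is partly removed through steps not described in detail in the methods, so a count model was not fitted. Adjusted counts summed to 23908890 (CONV), 26417388 (CONV AsiDNA) and 23383510 (FLASH), and libraries shared 16, 9 and 17 cell barcodes. Sums over ciliated cells were scaled to CPM and compared as log2(CPM + 10) over genes with at least 20 adjusted counts, with no test and no p-value, since each condition has 1 mouse. A 0 is a listed value and carries no detection limit. No doublet caller was run. Genes with near-identical copies (Dnah7a/b/c, Dynlt1a/b/c/f, Rsph3a/b, Hspa1a/b) are uncertain. Club comparison cells (352) and type 2 comparison cells (993) were selected by their own markers. Genes named outside the lists were the 8 farthest above and below both other libraries, those listed at 0 in some library, and the 20 farthest above other cells. The ciliated cells and all gene lists were chosen with earlier results of these data known. Scripts were tested on simulated data (Python 3.11.15, numpy 2.4.6, scipy 1.17.1, pandas 2.3.3). Per-sample tables of another experiment in the series, 12 columns, were not used.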

Additional observations from a re-analysis of the deposited data

How the results depend on the processing

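No paired analysis was possible because each condition has 1 library. Every difference rests on 1 mouse per condition, and the intervals cover cells only. Genes named as past 2-fold gave 1586 values under other settings. Of these, 1533 kept their direction and were either still past 2-fold or close to their main ratio. Another 52 kept their direction but fell short of 2-fold by a larger move. In 1 the direction changed (Nbl1, CONV AsiDNA over FLASH, 0.05 without cells that hold markers of other cells). How many of the 1533 fell short of 2-fold was not counted. With cells lacking Ptprc as the denominator the shares were 14.4%, 17.2% and 11.4%, and the differences -2.77 (CONV minus CONV AsiDNA), 2.99 (CONV minus FLASH) and 5.76 percentage points (CONV AsiDNA minus FLASH). CONV minus FLASH turned to -0.40 with no exclusion genes (FLASH 5.09%) and to -0.06 without the exclusion of Scgb1a1 (FLASH 4.74%). Counts of genes past 2-fold depended most on the pseudocount. With 1 in place of 10 they were 509 higher and 414 lower (CONV against CONV AsiDNA), 686 and 369 (CONV against FLASH) and 459 and 236 (CONV AsiDNA against FLASH), and with 50 they were 28 and 15, 30 and 15, and 10 and 6. For CONV AsiDNA against FLASH, a minimum sum of 50 left 42 higher, and cells with a mitochondrial share under 5%, an alternative chosen after seeing the data, gave 136 higher and 60 lower. Keeping the cells with exclusion genes, also chosen after seeing the data, gave 110 lower in CONV than FLASH and 67 lower in CONV AsiDNA than FLASH, axonemal medians of 0.04 (CONV over FLASH) and 0.10 (CONV AsiDNA over FLASH), a chaperone median of -0.73 (CONV over FLASH) and immediate early medians of 0.75 (CONV over CONV AsiDNA) and 0.11 (CONV over FLASH). The chaperone median of CONV over CONV AsiDNA was -0.89 and -0.49 with pseudocounts 1 and 50 and -0.59 with no minimum sum. That of CONV over FLASH was -0.63 with pseudocount 50, -0.75 with no minimum sum and -0.71 under 5% mitochondrial share. The immediate early median of CONV over CONV AsiDNA was 1.05 and 0.61 with pseudocounts 1 and 50 and 1.09 under 5% mitochondrial share, and that of CONV AsiDNA over FLASH was -0.38 with pseudocount 50, -0.47 with no minimum sum and -0.84 under 5% mitochondrial share. Of 153 share differences of named genes recomputed with cells thinned to 1000 adjusted counts, 104 kept their direction and whether the intervals were apart, 48 changed in the latter (Iqca, Cfap45, Prom1, Areg, Klf6, Socs3, Nfkbia, Casp4 and Skil among them), and 1 turned, that of H2-D1 between CONV and CONV AsiDNA (-0.3 percentage points). The cause of these moves was not tested.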

Other observations

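Antioxidant and xenobiotic genes, many of them targets of the stress factor Nfe2l2, were highest in FLASH for several members. Over 43 genes the medians were 0.03 (CONV over CONV AsiDNA), -0.21 (CONV over FLASH) and -0.18 (CONV AsiDNA over FLASH), beside -0.06, 0.01 and -0.02 in all other cells. In club cells the list was also highest in FLASH, at 30123.1, 34494.3 and 42803.6 CPM in sum, and in type 2 cells it was at 11464.0, 11142.9 and 10624.6 CPM. The glutathione transferase Gstm1 was at 1599.4, 1818.2 and 2476.5 CPM in CONV, CONV AsiDNA and FLASH, and the epoxide hydrolase Ephx1 was above 0 in 51.9%, 55.6% and 73.5% of ciliated cells. Txnrd1, a thioredoxin reductase, was at 504.1, 342.1 and 659.2 CPM and Nqo1, a quinone reductase, at 35.0, 17.3 and 49.7 CPM. Both were lowest in CONV AsiDNA, with share intervals apart from those of FLASH. Nfe2l2 itself was at 302.7, 340.9 and 358.2 CPM.

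Among clock genes, Dbp was at 17.2, 63.4 and 49.7 CPM and Nr1d1 at 35.8, 85.8 and 66.6 CPM, lowest in CONV. Arntl, whose phase is opposite to theirs, was at 32.1, 41.5 and 45.9 CPM, with overlapping intervals. Over 18 clock genes the medians were 0.14, -0.03 and -0.04, and 13 ratios of CONV over CONV AsiDNA were above 0. In that pair Bhlhe40 was at least 2-fold higher in CONV (1.37% of all genes), and Dbp and Nr1d1 at least 2-fold lower (0.798%). Between CONV and FLASH, 9 ratios were above 0 and 9 below, and Dbp alone passed 2-fold, lower in CONV (0.692%). In all other cells Dbp was at 3.68, 4.86 and 6.9 CPM.

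The Notch ligands Jag1 (190.1, 169.9 and 185.7 CPM) and Jag2 (81.3, 100.2 and 111.6 CPM) stayed within 2-fold, as did the Notch target Hes1 (932.8, 1078.1 and 1286.5 CPM). None of 14 Notch genes and none of 12 planar polarity genes passed 2-fold in any pair. At most 1.9% of all genes did in either direction, so lists this short would hold few or none. In CONV, 2 Notch genes had a higher and 1 a lower share interval than in CONV AsiDNA (5.84% and 5.07% of all genes).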
